A study of Homo sapiens with 4 samples.

Results

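The genes described here build the DNA replication machinery and drive its S-phase programme: cyclin E and E2F factors, the proteins that license and fire replication origins, the polymerases and their clamp, the enzymes that supply nucleotides, and the factors that rebuild chromatin behind the fork. They are a list of 59 gene symbols, matched by name to the authors' deposited table, and 48 of the 59 have a row among its 8727 genes. Polyadenylated RNA was sequenced from HepG2 cells, an established human liver cancer line labelled as hepatoblastoma, with 2 libraries from cells that received DMSO, the solvent, and 2 from cells exposed for 24 h to isoginkgetin, a plant biflavonoid, at 20 µM. The series asks how the compound changes gene expression in a setting that its title describes as autophagic cell death. The authors' deposited table covers the genes with an adjusted p under 0.05. It lists for each of them the normalized count averaged over the libraries, the fold change as a log2 value, the standard error (SE) of that value, and raw and adjusted p-values. Values per library and total counts are not analysed here, so neither the spread between single libraries nor the depth can be shown. Negative fold changes are called lower and positive ones higher in isoginkgetin, the usual order of treatment over control, but the file headers do not name the order. Turned round, it would reverse every direction given here. Whether the replicates are separate cultures is not labelled, so the p-values measure only how these libraries vary, and that variation may be technical.

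Each origin of replication is licensed once per cell cycle, when the origin recognition complex, CDC6 and CDT1 load rings of MCM2 to MCM7 onto DNA in G1. At the start of S phase, kinases recruit CDC45 and GINS to turn each ring into an active helicase, and polymerases follow it, held by the sliding clamp PCNA. E2F transcription factors, released from the retinoblastoma protein by cyclin-dependent kinases, switch on most of these genes as a cell enters S phase, so their mRNAs are widely used as a sign of proliferation.

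The replication genes were mostly lower after isoginkgetin. Of the 59 listed genes, 44 were lower (74.6%) and 4 were higher (6.78%) per the authors' deposited table. Over all 20024 genes tested, 43.6% passed the threshold, 21.1% as lower and 22.4% as higher. The 4 higher genes were ASF1A, DBF4, CDC25A and CDC6. A decrease of 2-fold or more was reached by 20 of the 59 (33.9%), against 7.43% of all genes tested. The levels of tested genes without a row are not known, so these shares are not matched for level. Among the 6220 genes with a row that average 250 normalized counts or more, 48.2% were lower and 10.8% by 2-fold or more. Of the 47 replication genes at that level, 43 were lower and 19 by 2-fold or more. The remaining 11 genes, CCNE1, CCNE2, E2F3, ORC6, GMNN, MCM7, CDC7, GINS3, RFC3, FEN1 and TIPIN, have no value, so it is not known whether they were tested or how they moved. In bulk RNA, fewer cells in S phase and less RNA of these genes per cell cannot be told apart.

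Log2 fold changes of the 48 genes with a row ran, per the authors' deposited table, from −3.75 (ASF1B) to 0.94 (ASF1A), with a median of −0.89, quartiles of −1.16 and −0.59 and a median of −0.96 over the lower ones. All genes of the table had a median of 0.21 and quartiles of −0.76 and 0.65. Most replication genes thus moved by a moderate amount and in one direction. POLA2 had the lowest mean normalized count of the 48, 57.9 over both groups, and the largest SE, 0.49 on the log2 scale, in the authors' deposited table.

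**Figure D1:**
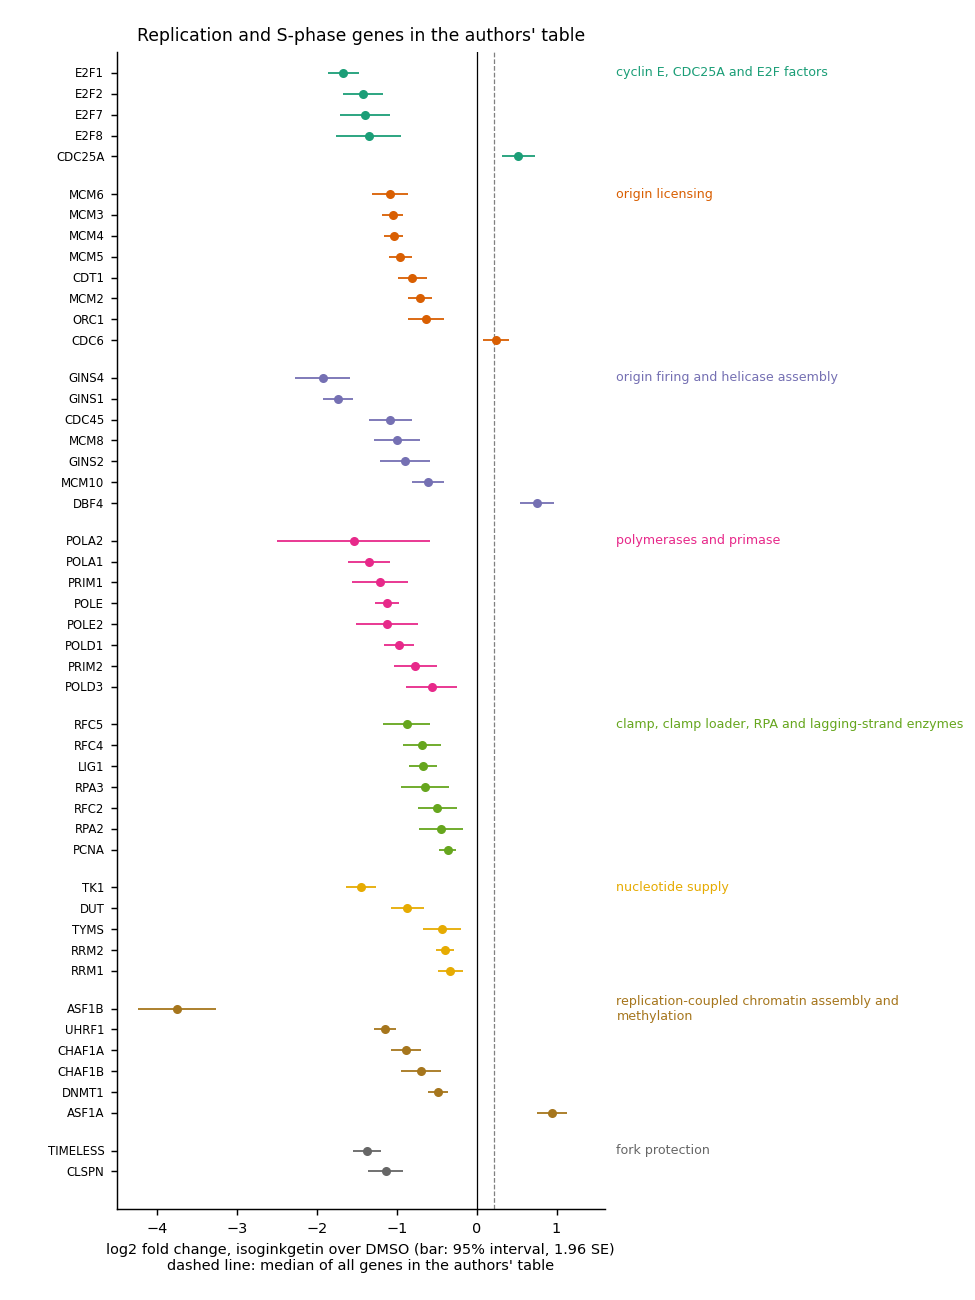
Log2 fold change (isoginkgetin over DMSO, x axis) of the 48 replication and S-phase genes with a row, one per line and coloured by role; bars are 95% intervals from the authors' SE. All but ASF1A, DBF4, CDC25A and CDC6 lie left of 0, ASF1B lies farthest left at −3.75, and the dashed line marks the table's median of 0.21.

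**Figure D2:**
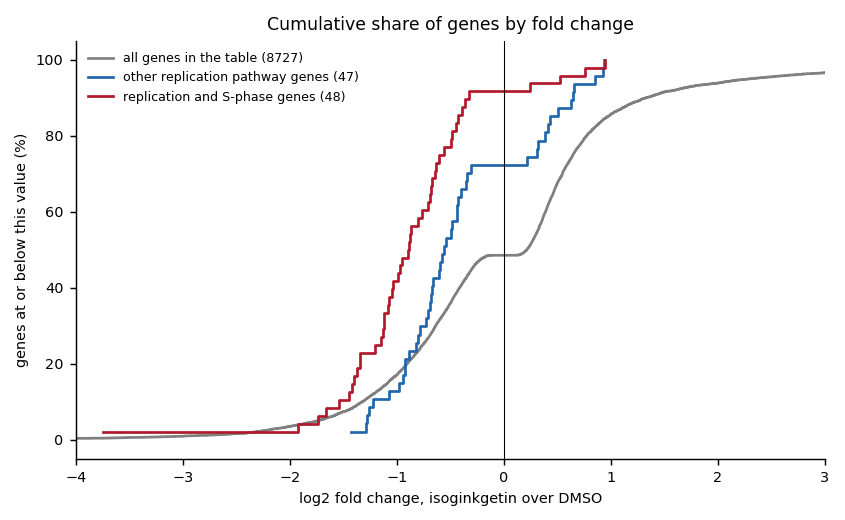
Cumulative percentage of genes (y axis) by log2 fold change (x axis) for the 48 replication and S-phase genes, 47 other genes of the replication pathway and all 8727 genes of the table. At a fold change of 0 the curve of the replication genes has reached 91.7%, that of the other pathway genes 72.3% and that of all genes 48.5%; every curve is flat close to 0 because the table holds only genes past the threshold.

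The E2F factors E2F1, E2F2, E2F7 and E2F8 were lower. E2F1, an activator and the best known switch of this programme, averaged 1384 normalized counts and stood at −1.67 (SE 0.10, adjusted p 1.04e-61) on the log2 scale in the authors' deposited table. That leaves 31.5% of the DMSO level, with a 95% interval from the SE of 27.5% to 36.0%. Its fellow activator E2F2 was at −1.42 (SE 0.13, adjusted p 5.28e-27) per the authors' deposited table. E2F7 and E2F8, atypical family members that repress E2F targets later in S phase and are themselves E2F targets, were at −1.40 (SE 0.16, adjusted p 2.4e-18) and −1.35 (SE 0.21) per the authors' deposited table. Activators and atypical repressors therefore stood close together, and the 95% intervals of all 4 overlap. CDC25A, the phosphatase that activates cyclin-dependent kinases at the start of S phase, was higher, at 0.52 (SE 0.11, adjusted p 3.38e-06, mean normalized count 987) per the authors' deposited table. Its level was 144% of that in DMSO (95% interval 124% to 166%). The cyclin E genes CCNE1 and CCNE2 and the activator E2F3 have no value.

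E2F factors bind sites of the form TTTSSCGC, where S is C or G, and such sites are the feature these genes are known to share, so their promoters were read. RefSeq windows from 250 bases before to 50 bases after the transcription start (GRCh38.p14) were available for 51 of the 59 genes, 69 windows in all, because 13 genes have more than 1 start. The 4 sequences TTTCCCGC, TTTCGCGC, TTTGCCGC and TTTGGCGC were searched on both strands. At least 1 of them occurs in 30 of the 69 windows (43.5%), against 3.31% of all 35116 windows. Counted by gene, 29 of 51 (56.9%) hold one, against 5.4% of 15843 coding genes. Of the 40 matches, 28 begin within 100 bases before the start, 7 lie farther away and 5 after it, some of them overlapping one another. Upstream stretches of 6 genes with matches are printed here 5′ to 3′ up to the base before the start, with the matches in capitals, so that the element can be seen in genes of different roles.
E2F1 (chr20:33686386-33686465, minus strand): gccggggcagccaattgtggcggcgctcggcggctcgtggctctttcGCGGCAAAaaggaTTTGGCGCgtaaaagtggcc
CDT1 (chr16:88803709-88803788, plus strand): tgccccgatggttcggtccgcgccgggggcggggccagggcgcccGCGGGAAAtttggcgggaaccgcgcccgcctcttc
MCM6 (chr2:135876444-135876603, minus strand): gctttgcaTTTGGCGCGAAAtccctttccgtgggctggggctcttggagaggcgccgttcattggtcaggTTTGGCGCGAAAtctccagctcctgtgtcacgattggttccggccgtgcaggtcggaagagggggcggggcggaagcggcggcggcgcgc
GINS2 (chr16:85688955-85689034, minus strand): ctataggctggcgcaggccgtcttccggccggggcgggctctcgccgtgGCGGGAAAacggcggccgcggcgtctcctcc
POLA2 (chr11:65261882-65261961, plus strand): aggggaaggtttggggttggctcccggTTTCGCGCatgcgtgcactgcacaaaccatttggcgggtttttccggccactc
CDC25A (chr3:48188418-48188497, minus strand): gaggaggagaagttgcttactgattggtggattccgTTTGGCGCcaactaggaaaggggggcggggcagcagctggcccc
E2F1 carries TTTGGCGC downstream of the reverse of TTTGCCGC. MCM6 carries TTTGGCGC overlapping the reverse of TTTCGCGC, and does so at 2 places. CDC25A, a gene that was higher, carries TTTGGCGC, as E2F1 and MCM6 do.

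Most replication genes were lower with or without a match. Among replication genes with both a window and a row, 20 of the 22 with a match were lower (median log2 fold change −1.02) and 17 of the 19 without a match were lower (median −0.77). Of the 4 higher genes, CDC25A and CDC6 have a match and DBF4 and ASF1A do not. With only 4 higher genes, this comparison had little room to show a difference in direction. A gene without a match may still hold a related sequence, since only the exact 8-mers count as a match. Outside the list, 375 genes of the authors' deposited table carry a match, and 186 of them (49.6%) were lower, with a median of 0.18. Without a match, of 5641 other genes there, 48.8% were lower, with a median of 0.20. Holding one of these 8-mers thus did not go with a lower level among the table's other genes. A match is a run of letters and not a shown binding site.

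A second pair of elements is known from cell cycle promoters: CCAAT, bound by NF-Y, and the cell cycle homology region, searched as TTTGAA and TTCGAA. On both strands CCAAT occurs in 37 of the 69 windows (53.6%, against 34.6% of all windows), and the homology region in 6 (8.7%, against 16.4%). Counted by gene, 31 of 51 (60.8%) hold CCAAT, against 42.1% of coding genes. The homology region is in 6 of 51 (11.8%), against 17.5% of coding genes. ASF1B, the gene with the largest decrease, has no E2F 8-mer in its window but holds TTTGAA close to its start and CCAAT on the reverse strand ahead of it. Its stretch is printed with both in capitals beside those of TIMELESS, with CCAAT in capitals, and of the higher genes DBF4 and ASF1A, which hold no E2F 8-mer or CCAAT in the stretch shown. ASF1A has a CCAAT just after its start, and DBF4 a TTTGAA on the reverse strand across its start.
ASF1B (chr19:14136590-14136709, minus strand): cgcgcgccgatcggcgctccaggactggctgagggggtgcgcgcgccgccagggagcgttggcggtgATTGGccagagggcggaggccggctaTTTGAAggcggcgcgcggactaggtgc
TIMELESS (chr12:56449427-56449546, minus strand): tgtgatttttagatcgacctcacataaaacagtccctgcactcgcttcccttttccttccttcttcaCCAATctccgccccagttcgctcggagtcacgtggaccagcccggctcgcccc
DBF4 (chr7:87876373-87876492, plus strand): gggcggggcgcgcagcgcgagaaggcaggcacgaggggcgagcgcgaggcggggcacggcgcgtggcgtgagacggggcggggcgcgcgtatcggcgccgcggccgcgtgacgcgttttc
ASF1A (chr6:118894032-118894151, plus strand): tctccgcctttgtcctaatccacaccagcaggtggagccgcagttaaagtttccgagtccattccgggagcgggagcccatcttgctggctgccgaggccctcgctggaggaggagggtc

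**Figure D3:**
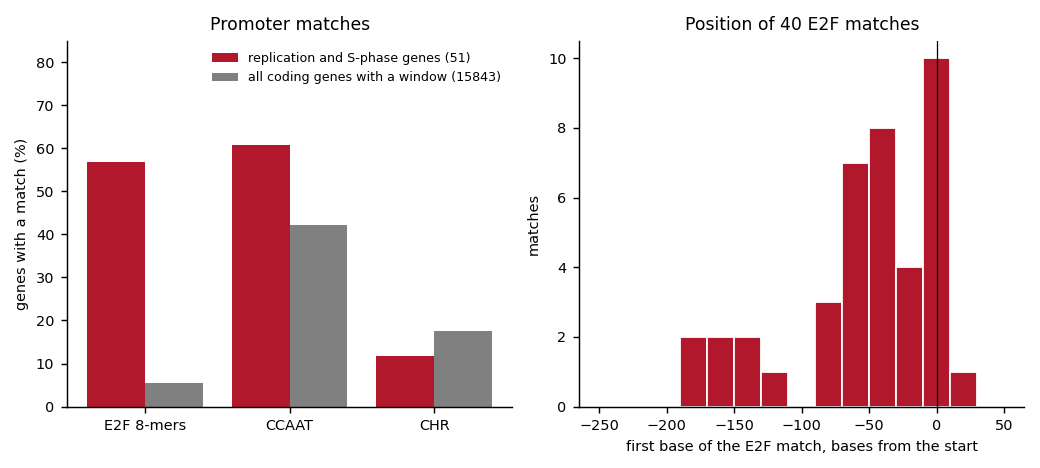
Left, percentage of genes (y axis) with at least 1 match in their promoter windows, for 51 replication and S-phase genes and 15843 coding genes; right, number of E2F matches (y axis) by distance of their first base from the transcription start (x axis). E2F 8-mers occur in 56.9% of the replication genes against 5.4% of coding genes, and 28 of the 40 matches begin within 100 bases before the start.

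Origin licensing genes were lower in 7 of 11 cases and higher in 1, with 3 without a value. The shares over all genes tested were 21.1% lower and 22.4% higher. The MCM ring, the helicase core loaded at origins, was lower in all 5 subunits that have a value. MCM6 was at −1.09 (SE 0.11, adjusted p 1.04e-20), MCM3 at −1.05 (SE 0.07, adjusted p 1.65e-54) and MCM4 at −1.04 (SE 0.06, adjusted p 4.92e-63) per the authors' deposited table. MCM5 stood at −0.95 (SE 0.07) and MCM2 at −0.71 (SE 0.08) there. In the authors' deposited table the 5 subunits with a value thus lie between 47.02% and 61.0% of DMSO. MCM7, the sixth subunit, has no value. CDT1, the loader that is destroyed once S phase begins, was at −0.80 (SE 0.09) and ORC1, the subunit of the recognition complex that varies through the cycle, at −0.63 (SE 0.12) per the authors' deposited table. CDC6, the ATPase that loads the ring with CDT1, was the exception at 0.24 (SE 0.08, adjusted p 0.01003, mean normalized count 1878) per the authors' deposited table. Its 95% interval runs from 105% to 132% of DMSO, and with fold changes centred on the table's median it would lie at 0.03. That median covers only genes past the threshold, so it is not known to be a shift shared by all genes tested. The licensing inhibitor GMNN and ORC6 have no value.

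The GINS genes had some of the largest decreases. GINS4 was at −1.92 (SE 0.18, adjusted p 1.21e-27, mean normalized count 420) and GINS1 at −1.74 (SE 0.10, adjusted p 1.84e-69, mean normalized count 1422) per the authors' deposited table, or 26.4% and 30.02% of DMSO. GINS2, another subunit of the same assembly, fell less, to 53.7% of DMSO (95% interval 43.1% to 66.9%), at −0.90 (SE 0.16) per the authors' deposited table. The interval of GINS2 does not overlap those of GINS4 (20.8% to 33.5%) and GINS1 (26.3% to 34.3%). CDC45, which joins GINS on the MCM ring, was at −1.08 (SE 0.14, adjusted p 5.76e-15) and MCM10, which helps to activate the ring, at −0.61 (SE 0.10) per the authors' deposited table. MCM8, an MCM relative with roles in recombination rather than licensing, was at −0.99 (SE 0.15) per the authors' deposited table. DBF4, the activating subunit of the kinase that fires origins, went the other way, at 0.76 (SE 0.11, adjusted p 5.79e-12, mean normalized count 975) per the authors' deposited table. That is 169% of DMSO, with a 95% interval of 146% to 196%. The kinase itself, CDC7, has no value, and neither has GINS3. DBF4 shares exon sequence with SLC25A40 on the opposite strand, which was at −1.09 (SE 0.18) per the authors' deposited table, so the overlapping genes stood on opposite sides of 0.

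All 8 polymerase and primase genes were lower, 5 of them by 2-fold or more. Over all 20024 genes tested, 21.1% were lower and 7.43% were lower by 2-fold or more. The complex that starts each new strand was lower in full: its accessory subunit POLA2 was at −1.54 (SE 0.49, adjusted p 0.000599), its catalytic subunit POLA1 at −1.35 (SE 0.14, adjusted p 7.78e-23) and the primase subunits PRIM1 and PRIM2 at −1.21 (SE 0.18, adjusted p 1.8e-11) and −0.77 (SE 0.14) per the authors' deposited table. The interval of POLA2, 17.7% to 67.0% of DMSO, overlaps those of the other 3. POLE, the catalytic subunit of the leading-strand polymerase, and its partner POLE2 were both at −1.12 (SE 0.08 and 0.20) per the authors' deposited table. POLD1, the catalytic subunit of the lagging-strand polymerase, was at −0.98 (SE 0.09) and its subunit POLD3 at −0.56 (SE 0.16) per the authors' deposited table.

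**Figure D4:**
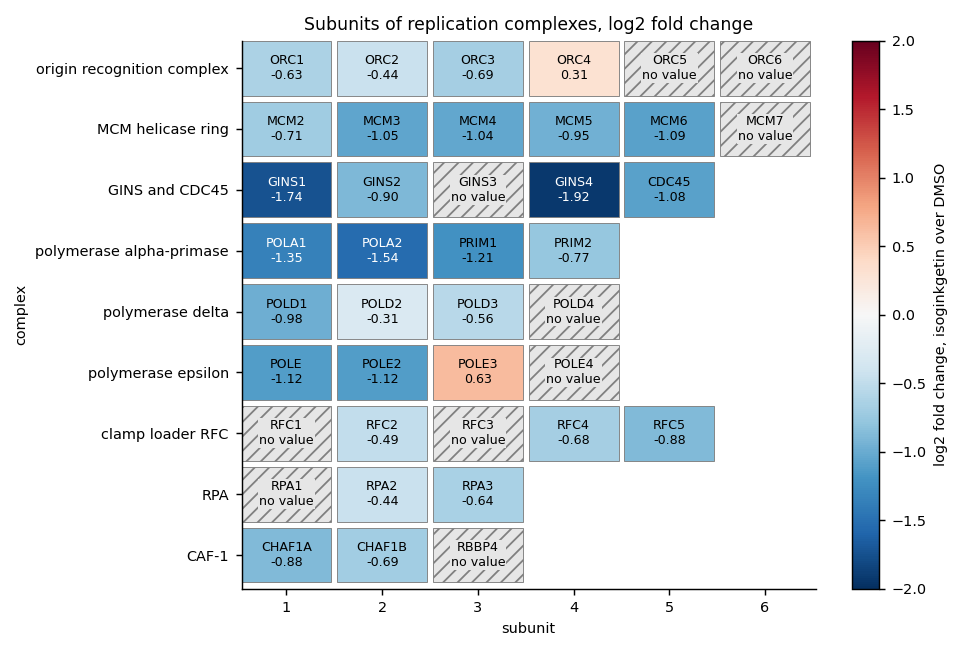
Log2 fold change (colour and printed value, isoginkgetin over DMSO) of the 40 subunits of 9 replication complexes, one complex per row; hatched grey tiles are subunits with no value. Blue (lower) fills every tile with a value in the MCM, GINS and polymerase alpha-primase rows, and the red (higher) tiles are ORC4 and POLE3.

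The clamp and lagging-strand genes were lower by smaller amounts, and none of the 7 with a value reached 2-fold. Of the 9 listed, 7 were lower (77.8%), against 21.1% of all genes tested. With 7.43% of all genes tested lower by 2-fold or more, 0 of 9 is near that share. RFC5 and RFC4, subunits of the clamp loader, were at −0.88 (SE 0.15, adjusted p 1.2e-08) and −0.68 (SE 0.12, adjusted p 2.98e-08) and LIG1, the ligase that joins Okazaki fragments, at −0.67 (SE 0.09, adjusted p 6.46e-13) per the authors' deposited table. RPA3 and RPA2, subunits of the single-strand binding protein, stood at −0.64 (SE 0.15) and −0.44 (SE 0.14), and the loader subunit RFC2 at −0.49 (SE 0.13) per the authors' deposited table. PCNA, the clamp itself and a common proliferation marker, had the smallest decrease of this group, at −0.36 (SE 0.06) per the authors' deposited table. It kept 77.8% of the DMSO level (95% interval 72.1% to 83.9%), a range that does not overlap those of the 5 MCM subunits with a value. The flap nuclease FEN1 and RFC3 have no value.

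Nucleotide supply split by enzyme. TK1, the salvage kinase for thymidine, was at −1.45 (SE 0.10, adjusted p 1.41e-50, mean normalized count 1629) per the authors' deposited table, or 36.7% of DMSO (95% interval 32.2% to 41.8%). DUT, which removes dUTP, was at −0.87 (SE 0.11, adjusted p 8.18e-16) per the authors' deposited table. The enzymes of de novo synthesis moved least: TYMS, which makes thymidylate, was at −0.43 (SE 0.12, adjusted p 0.000924), and the ribonucleotide reductase subunits RRM2 and RRM1 at −0.40 (SE 0.06) and −0.33 (SE 0.08) per the authors' deposited table. These 3 genes kept between 74.2% and 79.5% of DMSO, and their 95% intervals lie wholly above that of TK1. TYMS overlaps 2 genes on the opposite strand, TYMSOS and ENOSF1, which were at −1.31 (SE 0.19) and −1.27 (SE 0.12) per the authors' deposited table. DUT has 8 annotated pseudogenes and RRM2 has 3, and how shared reads were divided is not stated.

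The chromatin group held both ends of the list. ASF1B and ASF1A are paralogous chaperones that hand histones H3 and H4 to the assembly factors, ASF1B being the form tied to proliferation. ASF1B was at −3.75 (SE 0.25, adjusted p 5.09e-50, mean normalized count 259) and ASF1A at 0.94 (SE 0.10, adjusted p 1.32e-21, mean normalized count 1385) per the authors' deposited table. The mean and the fold change together imply about 482 normalized counts in DMSO and 36.0 in isoginkgetin for ASF1B, and about 948 and 1822 for ASF1A. ASF1B thus stood at 7.45% of DMSO (95% interval 5.31% to 10.5%) and ASF1A at 192% (168% to 219%). The pair differ by 4.69 on the log2 scale (SE 0.27, taking both as independent). ASF1A shares exon sequence with MCM9 and ASF1B with AC022098.3, neither of which has a value, and the part of these overlaps was not tested. Only 34 of the 8727 genes of the table, ASF1B included, fell as far as ASF1B, and 4 of these had a mean normalized count at least as high. UHRF1, which brings the maintenance methyltransferase to newly copied DNA, was at −1.15 (SE 0.07, adjusted p 1.68e-60), while that methyltransferase, DNMT1, was at −0.48 (SE 0.06) per the authors' deposited table. CHAF1A and CHAF1B, subunits of the chromatin assembly factor CAF-1, were at −0.88 (SE 0.10) and −0.69 (SE 0.13) per the authors' deposited table.

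Both fork protection genes with a value were lower by more than 2-fold. They are 2 of the 3 listed, and 7.43% of all genes tested were lower by 2-fold or more. TIMELESS, which keeps polymerase and helicase together, was at −1.37 (SE 0.09, adjusted p 8.07e-50) and CLSPN, the adaptor that passes the checkpoint signal from stalled forks, at −1.14 (SE 0.11, adjusted p 1.04e-23) per the authors' deposited table. TIPIN, the binding partner of TIMELESS, has no value.

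**Figure D5:**
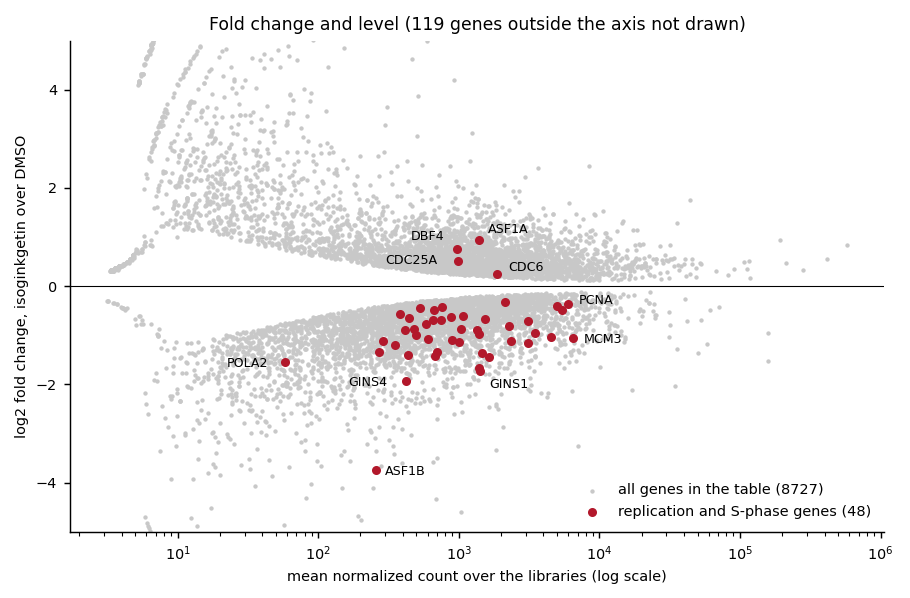
Log2 fold change (isoginkgetin over DMSO, y axis) against the mean normalized count over the libraries (x axis, log scale) for the genes of the table (grey; those beyond 5 in either direction are not drawn) and the 48 replication and S-phase genes (red). POLA2 lies farthest left of the red points, and ASF1B stands below the others; the empty band around 0 is where genes did not pass the threshold.

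Other genes of the replication pathway, 75 in 7 lists written by function, leaned the same way with smaller changes. Of these 75 genes, 34 were lower (45.3%), 13 were higher (17.3%) and 28 have no value in the authors' deposited table. Over all 20024 genes tested, 21.1% were lower and 22.4% higher, and the counts of single lists below stand beside the same shares. A decrease of 2-fold or more was seen in 6 of the 75 (8.0%), near the 7.43% of all genes tested. Their median was −0.56. Among further origin factors 8 of 14 were lower and 2 higher, led by the fork adaptor WDHD1 at −1.43 (SE 0.14), TRAIP at −0.82, the helicase RECQL4 at −0.71 and ORC3 at −0.69 in the authors' deposited table. Among further nucleotide enzymes 5 of 10 were lower and 1 higher, with the thymidylate kinase DTYMK at −0.89 (SE 0.10), TK2 at −0.81 and SAMHD1 at −0.60 in the authors' deposited table. Further histone supply and methylation factors were lower in 6 of 10 cases, with the remodeller HELLS at −1.29 (SE 0.10), TONSL at −0.92, NASP at −0.44 and CABIN1 at −0.43 in the authors' deposited table.

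Further subunits of polymerases, clamp loaders and RPA were lower in 3 of 10 cases and higher in 1, with 6 without a value. CHTF18, of an alternative clamp loader, was at −0.92 (SE 0.11), DSCC1 at −0.50, POLD2 at −0.31 and POLE3 at 0.63 (SE 0.09) per the authors' deposited table. POLE3, a histone-fold subunit of polymerase epsilon that also serves in chromatin remodelling, thus moved against POLE and POLE2. Of 6 further lagging-strand and topology enzymes, 2 were lower and 1 higher: TOP2A was at −0.98 (SE 0.05), DNA2 at −0.79 and TOP1 at 0.65 (SE 0.05) per the authors' deposited table.

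Regulators around the E2F switch were divided. Of 10 further E2F, DP and pocket protein genes 5 were lower and 2 higher, with the pocket proteins RBL1 at −1.28 (SE 0.13) and RB1 at −0.73 (SE 0.10), the E2F partner TFDP2 at −0.67 (SE 0.11) and the repressor E2F6 at 0.93 (SE 0.10) per the authors' deposited table. E2F6 therefore moved against E2F1, E2F2, E2F7 and E2F8. Of 15 S-phase kinases, inhibitors and checkpoint genes 5 were lower and 6 higher. PKMYT1, an inhibitory kinase of CDK1, was at −1.26 (SE 0.12), the checkpoint kinase ATR and its partner ATRIP at −0.94 (SE 0.14) and −1.07 (SE 0.23), and FBXW7, which marks cyclin E for destruction, at 0.92 (SE 0.12) per the authors' deposited table.

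Reads from exon sequence that genes share on opposite strands cannot be assigned, since the libraries keep no strand, and those from exon sequence shared on the same strand could not be assigned by strand either. In GENCODE v29, 23 of the 48 genes with a row share exon sequence with another gene. CHAF1B and PRIM1 overlap MORC3 and NACA, which were higher at 0.70 (SE 0.13) and 0.52 (SE 0.06), and RFC4 overlaps EIF4A2 at 0.50 (SE 0.06) per the authors' deposited table. The part of such overlaps in the values was not tested. As to the cell type, 11 of 12 hepatocyte and hepatoblast markers have a row, and 10 of them were lower, led by FGA at −1.64 (SE 0.05) and AHSG at −1.17 (SE 0.05) per the authors' deposited table; ALB has no value. The table holds 1 of 5 fibroblast markers, 2 of 5 leukocyte markers and 1 of 4 endothelial markers, all lower. Among them PDGFRB was at −1.98 (mean normalized count 60.2), LYZ at −1.08 (15328) and PECAM1 at −0.68 (129) in the authors' deposited table. Of all 20024 genes tested, 43.6% have a row and 21.1% were lower. The part of these markers in the results was not tested.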

How the data were processed

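Per the labels' protocols, the libraries hold poly(A)-selected RNA, and the kit keeps no strand. The submitters' processing notes list STAR (2.7.0) and featureCounts, and both a human build (hg19) and a mouse build (mm10), with no role for either. Per the file headers, the authors deposited columns of the kind DESeq writes. The authors' mean normalized count is a signal averaged over libraries, their fold change and SE are on the log2 scale, and each gene has the authors' p-value, raw and adjusted. The sources used here give neither its version and model nor the numerator of the fold change.

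The 59 symbols were matched exactly to the table. The number of genes tested, 20024, was recovered from the adjusted p times its rank over the p, which lay between 20011 and 20024 for p above 0.001. The ratio of fold change over SE to the normal deviate of the p was 0.984 at the median for members averaging 250 normalized counts or more and 0.834 for POLA2, so fold changes look slightly shrunken, POLA2's most. The 95% intervals are normal intervals from the authors' SE.

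Members and lists were chosen with earlier results of these data known, so no list was tested. Complexes in the tile plot were listed from textbook composition after the values were seen. Named genes were all members, up to 4 of each pathway list by size of change, and up to 2 of each marker list plus ALB. Some genes that this rule would name are not reported here. Promoter windows came from RefSeq (GRCh38.p14), gene overlaps from GENCODE v29; neither build is named by the notes, so only names and distances to starts were compared with the table. The motif search and the recovery of the number tested were tested on simulated data. Depth is unknown. The analysis used python 3.11.15, pandas 2.3.3 and numpy 2.4.6.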

Additional observations from a re-analysis of the deposited data

How the results depend on the processing

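Alternatives were listed with earlier results of these data known. The number of lower replication genes, 44, was 42 at an adjusted p under 0.001, 37 with Bonferroni, 36 at 1.5-fold or more and 20 at 2-fold or more. It was 43 among genes averaging 100 normalized counts or more, a setting that could remove only POLA2. After subtracting the table's median (0.21) it was 44, and subtracting a positive value could not have made it smaller. The number of higher ones, 4, was 2 at 1.5-fold or more (ASF1A and DBF4) and 0 at 2-fold or more. Among other pathway genes, the 34 lower ones became 22 at 1.5-fold and 6 at 2-fold, and the 13 higher ones 6 with Bonferroni, 6 at 1.5-fold and 0 at 2-fold. The replication genes' median of −0.89 was −1.10 when centred, which is a shift by that same constant. Of the 48 genes with a row, 3 (CDC6, POLD3 and RPA2) missed an adjusted p of 0.001, 8 missed Bonferroni and 0 turned when centred. Only the 4 higher genes could have turned. Members with an E2F 8-mer numbered 29, and 21 with the bases before the start alone or 31 with TTTNNCGC. No paired analysis was possible because the table gives no values per library; leaving out each replicate was not run for the same reason. A limit of the table is that only genes past the threshold have a value, so members with small changes are missing from every median.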

Other observations

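Some replication genes start close to a coding gene on the opposite strand. In GENCODE v29, 13 of the 59 genes have such a head-to-head partner with a start within 1000 bases, and for 4 pairs both genes have a row. In 6 other pairs the replication gene has a row and its partner has none. Whether the genes of a pair share a promoter was not tested. MCM4 and PRKDC, the DNA-dependent protein kinase of end joining, start 2 bases apart and were at −1.04 (SE 0.06) and −1.08 (SE 0.06) per the authors' deposited table. PCNA and CDS2, an enzyme of phospholipid synthesis, start 160 bases apart and were at −0.36 (SE 0.06) and −0.70 (SE 0.07) per the authors' deposited table. MCM8 and TRMT6, a subunit of a tRNA methyltransferase, start 94 bases apart and went opposite ways, at −0.99 (SE 0.15) and 0.38 (SE 0.10) per the authors' deposited table. POLD3 and LIPT2 were at −0.56 (SE 0.16) and −0.999 (SE 0.74) per the authors' deposited table, the latter with an adjusted p of 0.0497. Partners were found after the values of the members were known, and a nearby start was not tested as a cause of any of these values.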
